A study of Mus musculus with 46 samples.

Results

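Neurotransmitter receptor genes were followed in RNA-seq libraries of cultured mouse thyroid tumour cells labelled mutant or not for Max. Members were the protein-coding rows of the 2 deposited tables whose symbols carry the stems of the GABA, glutamate, glycine, nicotinic, muscarinic, serotonin, adrenergic, dopamine, purine and somatostatin receptor families. This rule found 52 of the 14888 genes with a row in either table: 50 of 14360 in the table of the lines, 41 of 14056 in the table of the addback experiment, and 39 in both. GENCODE vM21 holds 121 protein-coding names of these families, so the remaining names had no row and were not analysed here. Grina carries the stem of the NMDA receptor subunits but is not a receptor subunit; it stayed in by the rule and is given apart. Rows for the long noncoding Chrna1os and Grin1os were left out.

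Tumours arose in mice with conditional Rb and p53 alleles, with or without a conditional Max allele, that a tamoxifen-inducible Cre driven by Ascl recombined. RP denotes the 4 thyroid lines mutant for Rb and p53, and RPM the 4 lines mutant for Rb, p53 and Max. In a second experiment, by its labels, 1 of the RPM lines received either an empty vector (EV, 3 libraries) or a vector from which Max is expressed again (Max addback, 3 libraries). By the library names it is RPM replicate 2, so its replicates measure the spread between cultures or libraries of that line and not between animals. By their labels all cells were mutant for Rb and p53, and all were grown in DMEM with 10% serum. Tumour tissue (32 libraries) was not analysed here, and the labels used give no ages or strains.

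Receptors for neurotransmitters fall into ligand-gated channels and G protein-coupled receptors. The channels (GABA-A, glycine, nicotinic, serotonin type 3, P2X purine, AMPA, kainate and NMDA receptors) are assembled from several subunits, and which subunits a cell makes sets what it responds to. G protein-coupled receptors act as single chains or dimers and signal through G proteins to adenylyl cyclase, phospholipase C or ion channels. Calcitonin-producing C cells of the thyroid are neuroendocrine cells that secrete peptide and amines, and somatostatin receptors of neuroendocrine tumours are used for their imaging and treatment. MAX is the dimer partner through which MYC proteins, and the opposing MXD, MNT and MGA proteins, bind DNA at the E-box CACGTG.

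Levels are given as CPM, the authors' reads per gene scaled to library size, and changes as differences in log2(CPM + 1) from limma with Benjamini-Hochberg adjusted p over all genes of the table, called at an adjusted p under 0.05. Each library held between 6738614 and 8498396 reads, so 3 reads, the floor used for a gene without a read, came to 0.353 to 0.458 CPM. Max itself averaged 54.6 ± 8.80 CPM (SD, n = 4) in RP and 88.2 ± 16.2 (SD, n = 4) in RPM lines, so whole-gene counts did not check its deletion. Max averaged 88.5 ± 6.73 CPM (SD, n = 3) with EV and 240.2 ± 17.2 (SD, n = 3) with addback, a limma change of 1.43 (adjusted p = 5.75e-07).

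Several libraries stood apart or raised questions about their labels. Tumour libraries labelled Rb and p53 mutant carry the same animal number as RPM replicate 1, so the counts of called members and several of the changes are given without that library too. RP replicate 4 held both Xist at 344 CPM and the Y-linked Ddx3y at 53.4 CPM. RP replicate 2 and RPM replicate 3 held Xist at 5042 and 1958 CPM and no read of Ddx3y. The other lines held Xist at 0.963 CPM or less and Ddx3y at 35.5 to 125 CPM. Both transcripts thus varied within each genotype, and the part of this in the levels of X-linked members was not tested. Ddx3y lay between 157 and 177 CPM in the EV libraries and at 125 CPM in the untransduced line but had no read in the addback libraries. Eif2s3y, Kdm5d and Uty, also Y-linked, lay at 60.9 to 120.3 CPM with EV and at most at 0.257 CPM with addback. The addback libraries thus lacked Y-linked transcripts that the EV libraries held, although the label gives EV and addback cells as the same line. Whether they are the same line, and why these transcripts were absent, was not tested otherwise. The addback comparison may therefore set cells of different lines side by side, and re-expressed Max cannot be told apart from any other difference between these cells.

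Markers of C cells and neuroendocrine cells were present throughout: all 11 had rows, and their summed level was 5084 to 25280 CPM over the lines. Tg, Tshr and Foxe1, markers of thyroid follicular cells, and Ptprc, a pan-leukocyte marker, had no row in either table. With addback 9 of the 11 C cell and neuroendocrine markers rose, where 27.7% of all genes did by limma. The sum of the 11 went from between 5493 and 5814 CPM to between 10070 and 11610 CPM. Scg2 alone went from 1102 to 4066 CPM on average. Calca, the calcitonin gene, averaged 2788 CPM with EV and 2560 CPM with addback and did not pass (limma adjusted p = 0.411). Cpe did not pass either (limma adjusted p = 0.0917). All 5 epithelial markers rose too, and their sum went from between 54.7 and 61.3 CPM to between 406 and 497.5 CPM. The sum of 3 fibroblast markers was 29.5 to 39.4 CPM with EV and 10.2 to 13.1 CPM with addback: Dcn and Col1a1 fell by 2.12 and 1.86, while Pdgfrb rose by 1.99, from 0.537 to 5.08 CPM on average (limma adjusted p = 5.94e-05). The sum of the neuron markers with a row was 310.6 to 336.9 CPM with EV and 294.8 to 318.1 CPM with addback, with 1 of 3 higher and 2 of 3 lower. Within this sum Snap25 went from 58.6 to 214.1 CPM on average and Elavl3 from 215.5 to 55.25 CPM. The limma changes were 1.85 for Snap25, -1.94 for Elavl3 and -0.31 for Tubb3. The part of these shifts in the receptor results was not tested, and in bulk RNA fewer cells of a type and less RNA per cell cannot be told apart.

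For comparison between genes, levels per length were taken from the deposited RPKM values. Grina, at 74.5 ± 19.9 RPKM (SD, n = 8) over the lines, was among the 5 highest members. The others named of these were Grik5, a kainate receptor subunit, at 21.1 ± 3.62 RPKM, Htr3a, the subunit that can form serotonin type 3 channels by itself, at 18.1 ± 11.7 RPKM, and Sstr2, a somatostatin receptor, at 15.0 ± 15.4 RPKM (SD, n = 8 each). Grina, with 49.5 to 104 RPKM, lay above the range of Grik5, 15.4 to 27.4 RPKM, in every line, while Htr3a (3.11 to 32.1 RPKM) and Sstr2 (1.35 to 43.8 RPKM) reached across Grik5 and each other. Over the EV and addback libraries, the 5 highest members included Grina at 64.8, Gabrq at 23.5, Sstr2 at 22.5 and Grik5 at 22.1 RPKM. These means pool both groups, and the order of Gabrq, Sstr2 and Grik5 differed between the groups. With EV the means were 29.1 RPKM for Gabrq, 21.1 for Sstr2 and 18.5 for Grik5. With addback they were 17.9, 23.9 and 25.7 RPKM, and Gabra3 averaged 24.5 RPKM. Gabra4 and Gabra3, alpha subunits of GABA-A receptors, averaged 3.31 ± 3.74 and 3.30 ± 5.26 RPKM over the lines (SD, n = 8 each). Their ranges were 0.02 to 11.4 and 0.0325 to 15.5 RPKM, and their medians 2.54 and 1.11 RPKM.

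**Figure D1:**
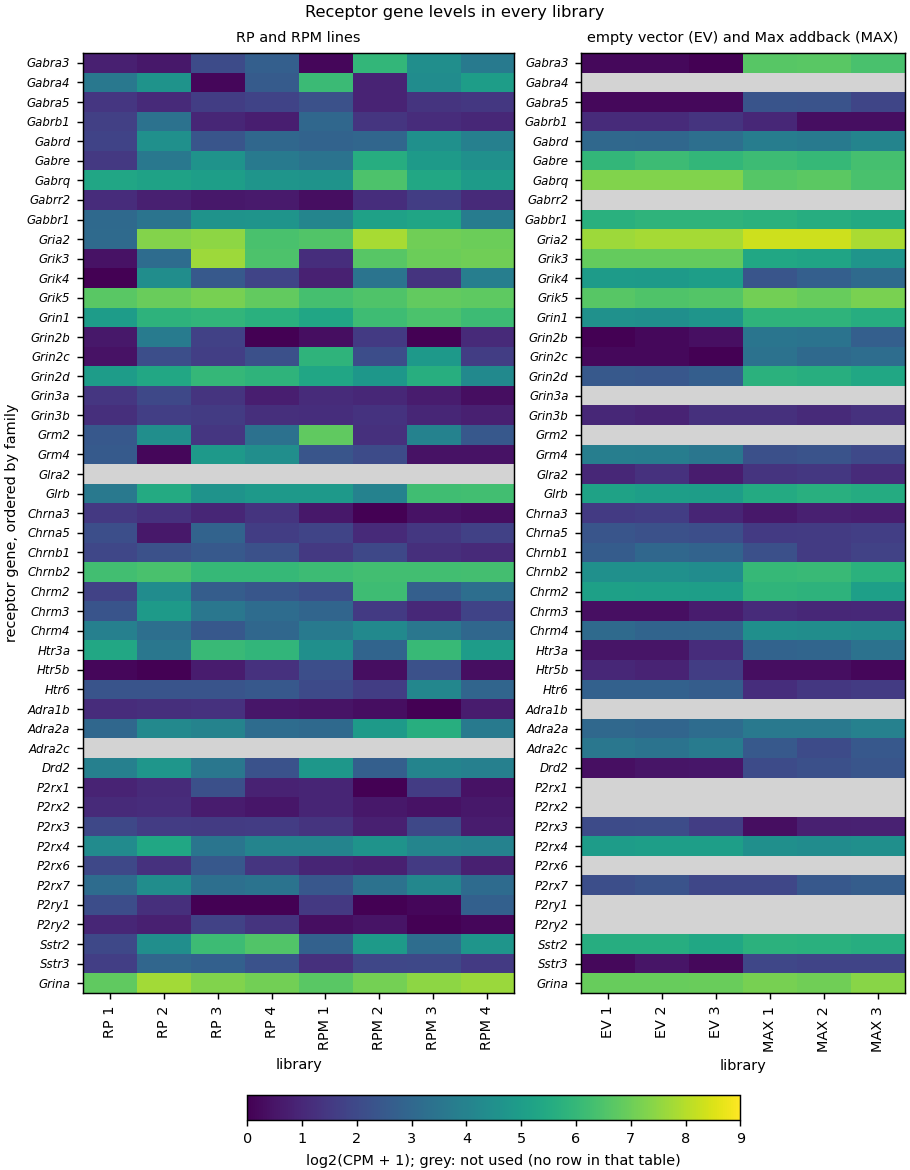
Level of each receptor gene as log2(CPM + 1), colour scale from 0 to 9, in the 8 RP and RPM libraries (left) and the 6 EV and Max addback libraries (right); rows are genes ordered by family, and grey marks a gene without a row in that table. The 48 genes drawn include Grik5, Chrnb2 and Grina, which are bright in every line; many other rows vary between lines of 1 group, and replicates look alike within EV and within addback for most genes.

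The comparison of RPM with RP lines asks how receptor transcripts differ between tumour cells labelled Max mutant and those that are not; as the Max transcript was no lower in RPM lines, the label was not checked by these data. None of the 50 members passed the limma test, against 0.334% of all genes tested (0.209% higher, 0.125% lower in RPM lines). At an unadjusted p under 0.05 there were 7 members, 14% of them, against 15.9% of all genes. edgeR's quasi-likelihood test on the recovered reads called no member and 0.0209% of all genes, and DESeq2 called 1 member (Grin2c) and 4.58% of all genes. Without RPM replicate 1, limma called no member and 1.82% of all genes, and DESeq2, in a fit added after the data were seen, called Gabra3 higher and Chrm3 lower, with 10.3% of all genes, and no longer called Grin2c. The median change of the members was -0.04, beside -0.01 for all genes, with 25 of 50 members above 0.

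Members varied widely between lines of the same genotype. Their median SD within a group was 0.79 on the log2 scale, beside 0.33 for all genes, and their median level of 9.86 CPM was lower than the 33.3 CPM of all genes. The groups did not overlap for 2 members, Chrna3 and P2ry2, both lower in RPM lines, or 4% of members against 9.37% of all genes (4.39% lower and 4.97% higher). Chrna3, an alpha subunit of ganglionic nicotinic receptors, lay at 1.80, 1.44, 0.975 and 1.53 CPM in RP lines (replicates in order) and at 0.510, 0, 0.355 and 0.248 CPM in RPM lines. All RPM lines were below all RP lines, with a limma change of -0.94 (SE 0.21, adjusted p = 0.135). P2ry2, a receptor for ATP and UTP outside the rule for named genes and chosen after its values were seen, lay at 0.721 to 2.44 CPM in RP and 0 to 0.374 CPM in RPM lines, with a change of -0.98 (limma adjusted p = 0.167).

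Gabra3 encodes the alpha 3 subunit of GABA-A receptors and lies on the minus strand of the X chromosome (chrX:72432681-72656848, GRCm38). It was at 0.722, 0.481, 3.17 and 5.53 CPM in RP and at 0.128, 61.0, 20.7 and 11.9 CPM in RPM lines. RPM replicates 2 to 4 exceeded every RP line, while RPM replicate 1 was the lowest of the 8. The change was 2.03 (SE 1.12, limma adjusted p = 0.403; exact two-sided permutation p = 0.143, where the smallest possible is 0.0286), and 3.16 with an adjusted p of 0.0692 without RPM replicate 1. DESeq2 without that library gave 3.66 (adjusted p = 0.00109).

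Grin2c, a GluN2 subunit of NMDA receptors, was at 0.361, 3.49, 2.19 and 3.53 CPM in RP and at 57.2, 3.37, 28.4 and 2.11 CPM in RPM lines. RPM replicates 1 and 3 were high and the other two lay within the RP range. Its limma change of 2.01 had an adjusted p of 0.342, whereas DESeq2 on the recovered reads gave 3.24 with an adjusted p of 0.0328. Without RPM replicate 1, the library with the most Grin2c, the changes were 1.26 by limma and 2.24 by DESeq2 (adjusted p = 0.405 and 0.154). Gabra4, the alpha 4 subunit, was at 11.2, 23.4, 0.122 and 5.06 CPM in RP and at 69.3, 0.873, 19.8 and 31.2 CPM in RPM lines. Gabre, the epsilon subunit and like Gabra3 X-linked, was at 1.80, 11.2, 23.9 and 12.0 CPM in RP and at 9.70, 47.9, 29.2 and 21.7 CPM in RPM lines. The groups overlapped for both, with changes of 1.36 (limma adjusted p = 0.615) and 1.25 (limma adjusted p = 0.404). Leaving out 1 library moved Gabra4 to between 0.50 (RP replicate 3) and 2.43 (RPM replicate 2), with 0.68 without RPM replicate 1, and Gabre to between 0.63 (RP replicate 1) and 1.68 (RP replicate 3), with 1.65 without RPM replicate 1.

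Grik3, a kainate receptor subunit, spanned from 0.361 to 206 CPM within RP alone: 0.361, 8.18, 206 and 88.2 CPM. In RPM lines it was at 1.28, 99.5, 125 and 133 CPM. Replicate 1 of each genotype was nearly without it, so the groups overlapped and the change of 1.02 (SE 1.82, limma adjusted p = 0.812) had an interval from -3.13 to 5.17. It was -0.32 without RP replicate 1 and 2.45 without RPM replicate 1. These were also the libraries with the highest summed epithelial markers, 3147 CPM in RP replicate 1 and 3542 CPM in RPM replicate 1, against 121.8 to 2355 CPM in the others; the part of this in the Grik3 levels was not tested.

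Grm4, a metabotropic glutamate receptor that couples to inhibitory G proteins, was at 4.81, 0.120, 28.2 and 21.0 CPM in RP and at 4.21, 3.12, 0.355 and 0.372 CPM in RPM lines. Chrm3, a muscarinic receptor coupled to phospholipase C, was at 4.09, 29.0, 10.9 and 8.01 CPM in RP and at 6.64, 1.87, 1.07 and 2.48 CPM in RPM lines. For both the groups overlapped, with changes of -1.68 (limma adjusted p = 0.440) and -1.67 (limma adjusted p = 0.248). Without RPM replicate 1 they were -2.03 and -2.04 by limma (adjusted p = 0.329 and 0.112), and DESeq2 gave Chrm3 as -2.85 (adjusted p = 0.00279). Leaving out any 1 library gave -2.62 (RP replicate 2) to -1.06 (RP replicate 3) for Grm4.

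Sstr2 was at 2.89, 20.6, 71.1 and 93.9 CPM in RP and at 6.0, 28.8, 8.40 and 25.1 CPM in RPM lines. The groups overlapped, with a change of -0.87 (limma adjusted p = 0.691) that ran from -1.81 without RP replicate 1 to -0.28 without RP replicate 4. RP replicates 3 and 4 held more Sstr2 than any RPM line.

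The authors' deposited table calls 7 members in this comparison, 14% against 4.19% of all genes. It gives 3 (against 1.72% of all genes) as higher in RPM lines, Gabra3 (log2 fold change 3.23), Grin2c (3.24) and Grm2 (1.87), a metabotropic glutamate receptor coupled to inhibitory G proteins. The authors' deposited table gives 4 (against 2.47%) as lower, among them Grm4 (-2.74), P2ry2 (-2.82) and Sstr2 (-1.46). For Grm2, RPM replicate 1 held 112 CPM and the other RPM lines 1.37 to 15.0 CPM, beside 1.71 to 20.7 CPM in RP lines.

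**Figure D2:**
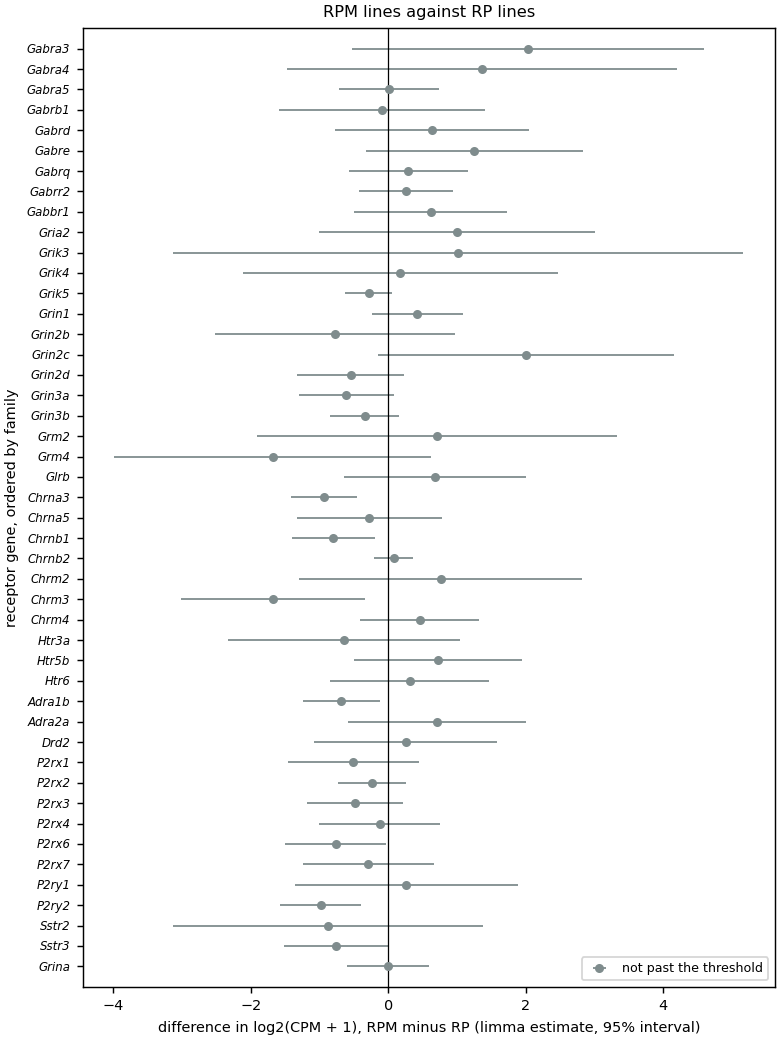
Difference in log2(CPM + 1) between RPM and RP lines (limma estimate, point) with its 95% interval (line) for 46 receptor genes, ordered by family; the vertical line marks 0. Grey points mark that no gene passed an adjusted p of 0.05; the widest interval is that of Grik3, from -3.13 to 5.17.

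The addback experiment asks which receptor transcripts differ between cells given a Max vector and cells given an empty one. Of the 41 members, 22 rose and 13 fell, or 85.37%, in a comparison in which 53.2% of all genes tested passed (27.7% higher, 25.5% lower). edgeR on the recovered reads called 22 members higher and 12 lower and 52.9% of all genes, and DESeq2 21 and 11 and 47.7%. By 1 or more on the log2 scale 19 members changed, against 15.6% of all genes. The groups did not overlap for 21 members that were higher and 13 that were lower with addback, against 31.7% and 30.2% of all genes, 61.9% together. The median change was 0.41, beside 0.00 for all genes. These shares describe members with a row: 9 of the 22 that rose averaged under 1 CPM with EV, against 23.1% of all genes that rose, and 4 of the 13 that fell averaged under 1 CPM with addback, against 7.48% of all that fell. The sources used here do not state the filter behind the rows, and genes with a row only through the higher group had to differ, so the shares support nothing about the family. The 11 members without a row in this table included Gabra4, Grin3a, Grm2 and 5 P2 receptor genes (P2rx1, P2rx2, P2rx6, P2ry1 and P2ry2). With 3 libraries against 3, an exact permutation test cannot go below p = 0.1, so adjusted p from limma are given.

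**Figure D3:**
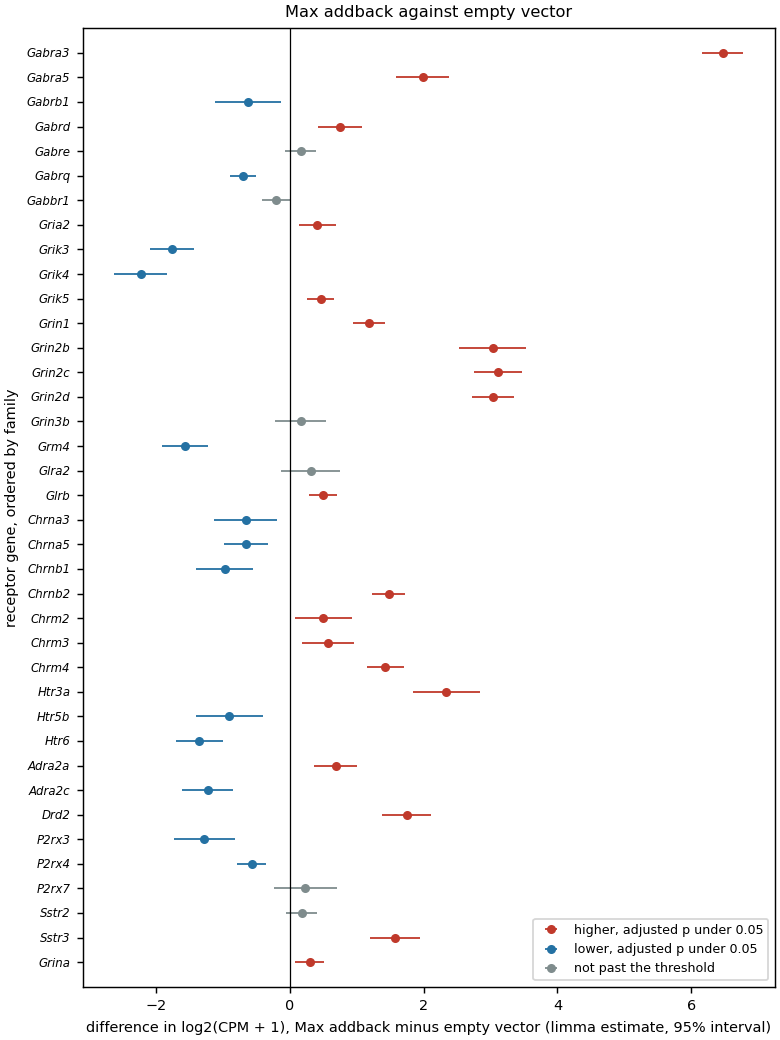
Difference in log2(CPM + 1) between Max addback and EV (limma estimate, point) with its 95% interval (line) for 38 receptor genes, ordered by family; red is higher, blue lower and grey not past an adjusted p of 0.05. Gabra3 stands far right at 6.47, the NMDA subunits Grin2b, Grin2c and Grin2d lie together near 3, and Grik4 is farthest left at -2.23. This scale understates changes of low genes, so equal positions need not be equal folds. Ratios of normalised reads were 59.1 for Grin2b and 86.9 for Grin2c, beside 9.72-fold in mean CPM for Grin2d. The deposited log2 fold change was lower for Htr5b (-2.55) than for Grik4 (-2.37).

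Among the 9 subunits of GABA-A receptors, 6 rose and 2 fell, where 27.7% of all genes rose and 25.5% fell by limma. Gabra3 was at 0.143, 0.142 and 0 CPM with EV and at 101, 103 and 83.7 CPM with addback. It was all but silent in each EV library, with 2 reads over all 3, and abundant in each addback library, with 2279 reads. The limma change was 6.47 (SE 0.14, adjusted p = 1.08e-09), and the ratio of normalised reads was 991, with a counting interval from 274 to 8185.

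Its RefSeq promoter is shown because this gene changed most among the members: 250 bases before to 50 after the start, on the minus strand at chrX:72656758-72657057 (GRCm38.p6). The second RefSeq start of the gene has a promoter that overlaps this one. Neither promoter holds the E-box CACGTG, so no letters are in capitals.
Gabra3: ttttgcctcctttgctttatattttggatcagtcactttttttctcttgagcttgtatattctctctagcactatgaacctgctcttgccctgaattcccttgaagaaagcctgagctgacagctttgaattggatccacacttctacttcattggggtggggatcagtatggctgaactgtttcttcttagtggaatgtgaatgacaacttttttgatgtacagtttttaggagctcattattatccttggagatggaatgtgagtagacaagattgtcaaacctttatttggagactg

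Gabra5, the alpha 5 subunit, was at 0.143, 0.142 and 0.153 CPM with EV and at 4.07, 3.99 and 2.70 CPM with addback. Every EV library held 1 read of it, and it rose by 1.99 (limma adjusted p = 1.01e-05), a ratio of 24.6 with a counting interval from 8.15 to 121.8.

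Gabrd, the delta subunit found outside synapses, rose by 0.75 (limma adjusted p = 0.0019). The theta subunit Gabrq, a neighbour of Gabra3 and Gabre on the X chromosome, went the other way, from 157, 154 and 155 CPM with EV to 99.0, 104 and 84.3 CPM with addback. It fell by 0.70 (SE 0.09, limma adjusted p = 1.07e-04) with no overlap of the groups. Gabrb1 fell by 0.62 (limma adjusted p = 0.0369) from 1.27 ± 0.223 to 0.508 ± 0.441 CPM (SD, n = 3), but not by edgeR or DESeq2 (adjusted p = 0.0602 and 0.124) nor by limma without any 1 library other than addback replicate 1 (adjusted p = 0.0631 to 0.119). Gabre, at 61.2, 70.3 and 60.6 CPM with EV and 70.4, 64.6 and 81.1 CPM with addback, did not pass (change 0.16, interval -0.07 to 0.39, limma adjusted p = 0.203). Of the 4 X-linked members 1 rose and 1 fell, and of the 37 autosomal ones 21 rose and 12 fell, beside 27.7% and 25.5% of all genes. Gabbr1, a subunit of the G protein-coupled GABA-B receptor, had a change of -0.20 (limma adjusted p = 0.107).

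NMDA receptors are channels for calcium that open only when glutamate and a glycine-site agonist bind while the membrane is depolarised; GluN1, from Grin1, is in every one, and GluN2 subunits bind glutamate. With addback 4 of 5 NMDA subunit genes rose, where 27.7% of all genes did. Grin2d was at 4.72, 4.40 and 5.50 CPM with EV and at 53.01, 49.1 and 40.0 CPM with addback. It was expressed in both groups and rose 9.72-fold in mean CPM (limma change 3.04, SE 0.14, adjusted p = 8.16e-08).

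Grin2c was at 0.143, 0.142 and 0 CPM with EV and at 9.53, 7.47 and 8.35 CPM with addback. Grin2b was at 0, 0.142 and 0.305 CPM with EV and at 10.4, 9.71 and 5.65 CPM with addback. Both had 2 or 3 reads in all with EV; the ratios were 86.9 (counting interval 23.8 to 723) for Grin2c and 59.1 (19.9 to 289) for Grin2b, with limma changes of 3.11 (adjusted p = 1.99e-07) and 3.03 (adjusted p = 2.58e-06). Grin1, the common subunit, rose from 22.9 ± 1.73 CPM to 53.3 ± 5.28 CPM (SD, n = 3; limma change 1.18, adjusted p = 9.35e-06). Grin3b, a glycine-binding subunit, did not pass (change 0.16, interval -0.22 to 0.54). Grin1 shares exon bases with the antisense Grin1os, at 1.26 CPM with EV and 2.11 CPM with addback, and Grin2d with Gm45441, at 0.288 and 0.805 CPM; the sources used here do not say whether counting used strand, and their reads cannot be told apart.

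The kainate receptor genes split. Grik3 was at 116, 115 and 116 CPM with EV and at 39.9, 37.5 and 25.2 CPM with addback. Grik4 was at 29.6, 29.1 and 32.2 CPM with EV and at 4.20, 5.60 and 7.71 CPM with addback. Both fell in every addback library, Grik3 by 1.76 (SE 0.15, limma adjusted p = 6.29e-06) and Grik4 by 2.23 (SE 0.18, limma adjusted p = 4.27e-06). Grik5, which like Grik4 encodes a subunit that needs a partner such as GluK3 for a working channel, was at 101, 90.4 and 95.7 CPM with EV and at 135, 119 and 145 CPM with addback. It rose by 0.46 (limma adjusted p = 0.00184). Gria2, the AMPA subunit that limits calcium entry, rose by 0.41 (limma adjusted p = 0.0162), a call that ended without EV replicate 1 or 3 or addback replicate 1 or 2 (adjusted p = 0.0509 to 0.0680). The metabotropic Grm4 fell from 13.4, 12.9 and 10.5 CPM to 3.56, 3.99 and 2.96 CPM, by 1.56 (SE 0.15, limma adjusted p = 1.79e-05).

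Htr3a was at 0.429, 0.426 and 1.22 CPM with EV and at 6.23, 6.72 and 9.51 CPM with addback, and rose 10.8-fold in mean CPM (limma change 2.34, adjusted p = 1.52e-05). The G protein-coupled serotonin receptors moved the other way. Htr6, which couples to the stimulatory G protein, was at 5.86, 5.97 and 5.34 CPM with EV and at 1.27, 1.74 and 1.93 CPM with addback, and fell by 1.35 (limma adjusted p = 6.18e-05). Htr5b was at 1.00, 0.852 and 2.14 CPM with EV and at 0.254, 0.249 and 0.129 CPM with addback, and fell by 0.91 (limma adjusted p = 0.00651). No library of one group reached the range of the other for these 3 genes.

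Of 4 nicotinic subunit genes 1 rose and 3 fell, beside 27.7% and 25.5% of all genes. Chrnb2, the beta 2 subunit of the main brain receptors, was at 22.2, 21.9 and 19.7 CPM with EV and at 63.7, 66.8 and 53.1 CPM with addback. It rose 2.88-fold in mean CPM (limma change 1.48, SE 0.11, adjusted p = 2.38e-06). Chrnb2 shares exon bases with Adar on the opposite strand, which went from 50.2 ± 4.70 to 57.0 ± 8.70 CPM (SD, n = 3; limma adjusted p = 0.259).

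Chrnb1, the beta subunit of muscle receptors, was at 5.15, 6.96 and 6.26 CPM with EV and at 3.56, 1.99 and 2.44 CPM with addback, and fell by 0.97 (limma adjusted p = 0.00178). Chrna3 was at 1.86, 2.13 and 0.916 CPM with EV and at 0.508, 0.747 and 0.643 CPM with addback, and fell by 0.66 (limma adjusted p = 0.0239). That call ended under DESeq2 (adjusted p = 0.0604) and without EV replicate 1 or 2 or addback replicate 1 (limma adjusted p = 0.0653 to 0.0974). Chrna5, an accessory subunit in the same chromosome 9 cluster, fell by 0.66 (limma adjusted p = 0.00394). Groups were apart for all 3. Glrb, the glycine receptor subunit that binds the scaffold gephyrin, rose by 0.50 (limma adjusted p = 0.0013), while the alpha subunit Glra2 did not pass (change 0.31, interval -0.13 to 0.76).

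P2X receptors are channels opened by extracellular ATP. P2rx3, the subunit of sensory neurons, was at 3.14, 3.27 and 2.14 CPM with EV and at 0.254, 0.747 and 0.771 CPM with addback. It fell by 1.28 (SE 0.20, limma adjusted p = 5.08e-04), and each addback library lay below each EV library. Ssrp1, whose exons overlap it on the opposite strand, was at 323 ± 3.44 CPM with EV and 319 ± 13.9 CPM with addback (SD, n = 3; limma adjusted p = 0.860), and reads of the 2 genes cannot be told apart. P2rx4 fell by 0.57 (limma adjusted p = 5.99e-04) and P2rx7 did not pass (change 0.23, interval -0.24 to 0.70).

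All 3 muscarinic receptor genes rose with addback, as did 27.7% of all genes. Chrm4, which couples to inhibitory G proteins, rose by 1.43 from 6.89 ± 0.720 to 20.2 ± 1.24 CPM (SD, n = 3; limma adjusted p = 7.74e-06). Chrm3 was at 0.286, 0.284 and 0.611 CPM with EV and at 1.14, 0.996 and 1.03 CPM with addback, and rose by 0.57 (limma adjusted p = 0.0196). DESeq2 did not call it (adjusted p = 0.120), nor did limma without EV replicate 1 or 2 or addback replicate 1 (adjusted p = 0.0545 to 0.0700). Chrm2 rose by 0.50 (limma adjusted p = 0.0455), with addback replicate 3 at 32.5 CPM inside the EV range of 32.4 to 33.9 CPM; the call was lost without any 1 library other than addback replicate 3 (adjusted p = 0.0978 to 0.157).

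Drd2, the dopamine D2 receptor, was at 0.286, 0.426 and 0.458 CPM with EV and at 3.18, 3.61 and 4.24 CPM with addback. It rose 9.43-fold in mean CPM (limma change 1.75, SE 0.17, adjusted p = 1.41e-05), with every addback library above every EV library. The somatostatin receptor Sstr3 was at 0.143, 0.426 and 0.153 CPM with EV and at 2.80, 2.62 and 2.57 CPM with addback, and rose by 1.57 (limma adjusted p = 3.42e-05). Sstr2, the more abundant of the pair, was at 47.9, 48.0 and 40.0 CPM with EV and at 54.3, 52.1 and 47.2 CPM with addback. Its change of 0.17 (interval -0.05 to 0.40, limma adjusted p = 0.171) did not pass, except without addback replicate 3 (0.23, adjusted p = 0.0249).

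The alpha 2 adrenergic receptors, which inhibit adenylyl cyclase, moved apart. Adra2c was at 10.9, 9.66 and 12.4 CPM with EV and at 4.70, 3.11 and 4.63 CPM with addback, and fell by 1.23 (limma adjusted p = 1.94e-04). Adra2a rose by 0.68 from 7.35 ± 0.709 to 12.5 ± 1.89 CPM (SD, n = 3; limma adjusted p = 0.00272). Grina, at 120.1, 118 and 121 CPM with EV and 142, 133 and 169.5 CPM with addback, rose by 0.30 (limma adjusted p = 0.0241), a call that ended when any 1 EV library was left out (adjusted p = 0.0691 to 0.0819).

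By class, 15 of 28 channel genes rose and 9 fell, and 6 of 12 G protein-coupled receptor genes rose and 4 fell. By the same limma test 27.7% of all genes rose and 25.5% fell. The authors' deposited table calls 17 members higher and 13 lower with addback, beside 18.9% and 13.1% of all genes, 32% together. That call did not rest on FDR alone, so the counts are not like for like. Gria2 (deposited log2 fold change 0.43, FDR 0.00103) and Chrm2 (0.56, FDR 2.1e-05) had no deposited call. The C cell, neuroendocrine and epithelial marker sums and the Y-linked transcripts given above moved with all of these changes.

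**Figure D4:**
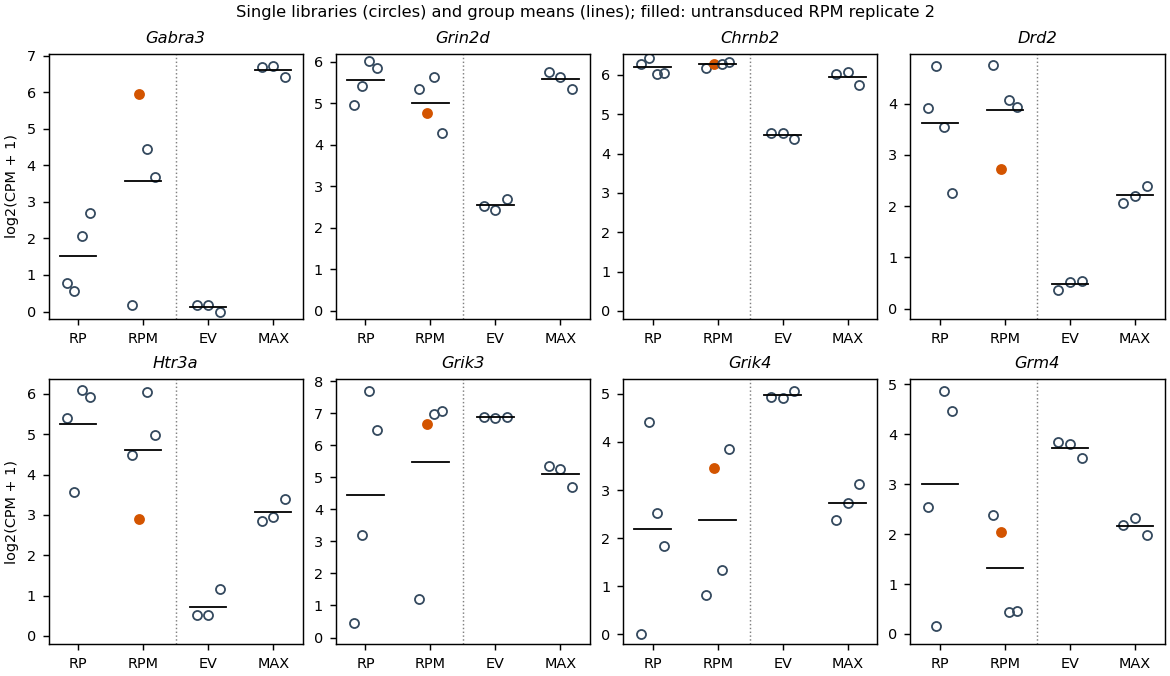
Level as log2(CPM + 1) of 8 receptor genes in single libraries (circles) with group means (horizontal lines): RP and RPM lines left of the dotted line, EV and Max addback (MAX) right of it, from tables normalised separately; the filled circle is RPM replicate 2, by the library names the line behind EV and addback. RP and RPM circles overlap in every panel, EV and MAX circles do not overlap in any, and Gabra3 goes from near 0 with EV to over 6 with addback. The 8 genes were drawn from the largest called changes with addback, so this contrast says nothing about receptors as a set. Over all genes, the groups did not overlap for 61.9% with addback and for 9.37% between lines.

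RefSeq promoters, 250 bases before to 50 after a start, were found for 39 of the 52 members, 47 promoters in all. The E-box CACGTG, which is its own reverse complement, was in promoters of 5 of the 39 members (12.8%) and of 8.09% of the 27018 genes of the table. By promoter it was in 6 of the 47 and in 7.15% of 32841, but 2 of the 6 are overlapping P2ry2 promoters that hold the same site. The sequence GCGGGAA, a form bound by E2F proteins, searched on both strands, was in 0 of the 47 and in 4.60% of all. Members with CACGTG were Adra2a, Adra2c, Grin1, P2ry2 and Sstr3. Of 15 members with a promoter that rose with addback 3 held CACGTG, and of 10 that fell 1 did; the other promoter of Sstr3 (chr15:78541357-78541656) holds none. A match is a description of letters, not of binding. The promoters of the 4 such members with a call are shown, with CACGTG in capitals (GRCm38.p6): Grin1 on the minus strand at chr2:25319138-25319437, Adra2a on the plus strand at chr19:54045009-54045308, Sstr3 on the minus strand at chr15:78544296-78544595 and Adra2c on the plus strand at chr5:35278316-35278615.
Grin1: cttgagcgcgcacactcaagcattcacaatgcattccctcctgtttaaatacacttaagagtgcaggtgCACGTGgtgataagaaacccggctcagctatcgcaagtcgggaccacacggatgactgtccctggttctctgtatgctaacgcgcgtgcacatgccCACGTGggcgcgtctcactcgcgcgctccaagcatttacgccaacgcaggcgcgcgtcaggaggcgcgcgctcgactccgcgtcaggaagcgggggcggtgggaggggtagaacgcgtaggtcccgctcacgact
Adra2a: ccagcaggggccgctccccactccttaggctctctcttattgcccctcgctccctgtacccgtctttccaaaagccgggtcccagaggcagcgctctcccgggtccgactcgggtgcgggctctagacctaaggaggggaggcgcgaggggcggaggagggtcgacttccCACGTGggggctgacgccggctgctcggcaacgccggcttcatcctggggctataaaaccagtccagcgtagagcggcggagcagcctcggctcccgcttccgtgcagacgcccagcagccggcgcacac
Sstr3: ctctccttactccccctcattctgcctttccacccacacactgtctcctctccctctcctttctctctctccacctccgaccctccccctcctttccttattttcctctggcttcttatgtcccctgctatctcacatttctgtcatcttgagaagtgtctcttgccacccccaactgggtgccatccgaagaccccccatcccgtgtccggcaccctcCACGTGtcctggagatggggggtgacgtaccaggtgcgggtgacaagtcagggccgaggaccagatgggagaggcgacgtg
Adra2c: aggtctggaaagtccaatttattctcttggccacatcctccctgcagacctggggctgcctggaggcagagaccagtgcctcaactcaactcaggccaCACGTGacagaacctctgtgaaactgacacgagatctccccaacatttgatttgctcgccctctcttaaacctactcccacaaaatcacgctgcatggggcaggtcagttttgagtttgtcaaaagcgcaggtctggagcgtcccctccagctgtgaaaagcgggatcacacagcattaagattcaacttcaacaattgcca
Grin1 held the E-box at 2 places and the others at 1. Grin1, Adra2a and Sstr3 rose with addback and Adra2c fell, so members with the same letters changed in either direction.

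Genes that act with these receptors were taken from 4 lists. None of their genes was called between RPM and RP lines by limma, against 0.334% of all genes. In the addback experiment only list genes with a row were counted: 27 of 34, 23 of 24, 19 of 40 and 43 of 48, in the order below. As for the members, genes with a row only through the higher group had to differ. The shares called in each list therefore support nothing about the lists. With addback 15 of 27 auxiliary and scaffold genes of glutamate receptors rose and 7 fell, with a median change of 0.66 beside 0.00 for all genes. That was 81.5% called, against 53.2% of all genes (27.7% higher, 25.5% lower). Neto1, an auxiliary subunit of kainate and NMDA receptors, was at 0.429, 0 and 0 CPM with EV and at 32.9, 26.4 and 20.2 CPM with addback. Its relative Neto2, an auxiliary subunit of kainate receptors, was at 166.6, 164 and 161.5 CPM with EV and at 105.0, 96.8 and 65.8 CPM with addback. The pair moved in opposite directions, Neto1 by 4.58 (limma adjusted p = 9.83e-08) and Neto2 by -0.90 (limma adjusted p = 6.11e-04). Cacng2 (stargazin), which carries AMPA receptors to the membrane, rose by 3.53 from 0.919 to 21.0 CPM on average, and Grid1, a delta type glutamate receptor, fell by 1.99 from 55.6 to 13.3 CPM (limma adjusted p = 8.48e-08 and 2.67e-07).

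Of 23 assembly and scaffold genes of GABA, glycine and nicotinic receptors, 11 rose and 3 fell (median 0.19), or 60.9%, near the 53.2% of all genes. Tmem35a, a chaperone of nicotinic receptors, rose by 3.40 from 3.53 ± 0.850 to 46.4 ± 5.58 CPM (SD, n = 3; limma adjusted p = 1.12e-07), and Nlgn1, a synaptic adhesion protein, rose by 2.39. Kctd16, an auxiliary subunit of GABA-B receptors, fell by 1.52, and Lypd1, a membrane protein that binds nicotinic receptors, fell by 1.17 (limma adjusted p = 0.00351 and 4.12e-04).

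Genes for transmitter synthesis, packaging and clearance were mixed: 6 of 19 rose and 8 fell (median -0.11), or 73.7%, against 53.2% of all genes. Ddc, which makes dopamine and serotonin from their precursors, rose by 2.04 from 210.1 ± 15.2 to 864 ± 29.6 CPM, while Th, which makes the dopamine precursor, fell by 1.75 from 205 ± 6.59 to 60.6 ± 7.01 CPM (SD, n = 3; limma adjusted p = 4.09e-08 and 2.46e-07). Gad1, which makes GABA, fell by 1.66 from 29.7 ± 1.66 to 8.74 ± 0.350 CPM, and Maob, which degrades dopamine, rose by 2.46 from 0.241 to 5.91 CPM (limma adjusted p = 9.7e-07 and 2.15e-06). Gad1 and Gabra3, the gene for making the transmitter and a subunit of its receptor, thus changed in opposite directions in the same libraries. Not all GABA-A subunits did: 6 of 9 rose, while 2, Gabrq and Gabrb1, fell as Gad1 did.

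Of 43 genes for G protein coupling and desensitisation 16 rose and 11 fell (median 0.19), or 62.8%, near the 53.2% of all genes. Kcnj3, a potassium channel subunit opened by inhibitory G protein-coupled receptors, was at 1.00, 0.142 and 0 CPM with EV and at 104, 99.8 and 87.8 CPM with addback. It rose by 6.22 (limma adjusted p = 2.47e-08), and the adenylyl cyclase Adcy2 rose by 3.85 from 3.78 ± 0.365 to 68.0 ± 3.91 CPM (SD, n = 3; limma adjusted p = 5.7e-09). Rgs8, which speeds the turn-off of G proteins, fell by 1.77, and the G protein gamma subunit Gng2 fell by 1.74 (limma adjusted p = 9.99e-08 and 9.07e-08).

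**Figure D5:**
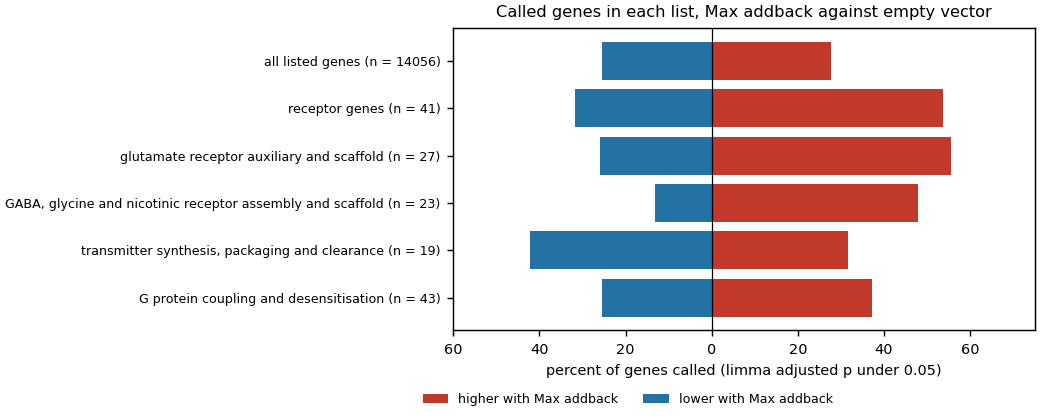
Percent of genes higher (red, to the right) and lower (blue, to the left) with Max addback by limma at an adjusted p under 0.05, for all 14056 genes, the 41 receptor genes and 4 lists of genes that act with them. All genes stand at 27.7% higher and 25.5% lower; transmitter synthesis, packaging and clearance is the list with more genes lower (8) than higher (6).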

How the data were processed

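Members and gene lists were chosen with earlier results of these data known. Groups came from sample titles and genotypes. Per the submitters' processing notes, bcl2fastq 1.8.4, TopHat2 2.1.0, HTSeq 0.6.1 and edgeR were used with build mm10. The sources used here do not give strand use, annotation release or row filter. Per the file headers, the authors made the deposited CPM signal by dividing each gene's reads by library size times a TMM factor, separately for each of the 2 tables. Dividing by the value of 1 read gave whole reads for 100% of values (within 0.01). Deposited too, per the file headers, are the authors' RPKM, used here for levels between genes only, log2 fold changes, p-values with FDR, and a call score.

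limma 3.58.1 (trend) was fitted to log2(CPM + 1) in each table over all genes, two-sided, without covariates; this scale understates changes of low genes. The design named edgeR for raw counts; edgeR 4.0.16 and DESeq2 1.42.0 on the recovered reads, other settings and left-out libraries were alternatives, and fits were tested on simulated data. Counting intervals (95%) and floors cover counting error only, and nothing in the labels says that EV or addback replicates are separate cultures. Exons that overlap came from GENCODE vM21. Named genes were Gabra3, the 10 largest called changes in each direction with addback, the 5 highest by RPKM in each table, the 5 largest changes in each direction between lines at 1 CPM or more in at least 4 libraries, and 2 called genes per list and direction; some of these are not reported here, though counts include them.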

Additional observations from a re-analysis of the deposited data

Results flagged for a closer look

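In 5 of 100 groups of 4 lines, 1 library lay far from the other 3 by Dixon's ratio of its gap to the group's range, set against its 95% critical value for 4 samples; chance alone gives about 1 in 20 groups. Grik3 in RPM lines had a ratio of 0.929, with replicate 1 at 1.28 CPM and the others at 99.5 to 133 CPM. Of the 5 it was the only one in which the distant library lay lowest. Htr6 in RP lines had a ratio of 0.876, with replicate 4 at 4.59 CPM beside 4.02 to 4.09 CPM, a gap of less than 1 CPM. P2rx3 in RP lines had a ratio of 0.887, with replicate 1 at 2.89 CPM beside 1.95 to 2.04 CPM. P2rx1 in RP lines had a ratio of 0.855, with replicate 3 at 3.54 CPM beside 0.824 to 1.08 CPM. P2rx6 in RPM lines had a ratio of 0.837, with replicate 3 at 1.89 CPM beside 0.743 to 0.893 CPM; its exons overlap Slc7a4 on the opposite strand.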

How the results depend on the processing

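With addback, receptor genes called higher numbered 22 (21 to 22 under other settings, 18 to 23 without 1 library) and lower 13 (11 to 13 in both). Chrm3 and Chrna3 lost their call under DESeq2 and without EV replicate 1, EV replicate 2 or addback replicate 1, and Grina without any 1 EV library; Sstr2 gained one without addback replicate 3. Other values of the 28 named genes kept direction and call there (321 of 333). Between lines, receptor genes called stayed at 0 except under DESeq2: 1 higher with all libraries, where Max was called too (0.692, adjusted p = 0.0205), and 1 higher and 1 lower without RPM replicate 1 (added after the data were seen), with Gabra3 at 3.66, Max at 0.734, Drd2 at -0.189 and Gabra5 at -0.402. All genes called, 30 higher and 18 lower by limma, became 1 and 2 with edgeR, 350 and 308 with DESeq2, 602 and 882 with DESeq2 without RPM replicate 1, and 0 to 77 and 0 to 184 without 1 library. Changes near 0 turned sign between lines: Gabra5 was -0.0126 with a pseudocount of 0.25, Grik4 -0.0956 with edgeR and -0.101 with DESeq2, and Grina -0.00123 with DESeq2 and -0.00105 with its size factors. Without 1 library the changes ran from -0.198 to 0.637 for Drd2, -0.241 to 0.201 for Gabra5, -0.086 to 0.539 for Gabrq, -0.32 to 2.45 for Grik3, -0.556 to 0.913 for Grik4, -0.146 to 0.181 for Grina and -0.175 to 0.666 for Htr6; the cause was not tested. Replicate numbers did not pair the libraries: same-numbered deviations correlated at 0.012 to 0.402 between lines and 0.012 to 0.079 in the addback table, and the same number was the best match for 1 of 4 and 2 of 3. With the replicate block, 0 members were called between lines (0 of all genes) and 22 and 13 with addback. Depth limits members at 0 to 3 reads per library.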

Other observations

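RPM replicate 2, by the library names the line behind the EV and addback libraries, was also profiled without a vector. Its levels come from the other table, normalised separately, so they are set beside the rest with no test. Of the 34 members called with addback that have a row in both tables, 25 (73.5%) lay closer to the addback mean than to the EV mean on the log2(CPM + 1) scale, against 63.5% of all 7192 called genes. Gabra3 lay at 61.0 CPM in this line, beside 0.0950 CPM with EV and 96.2 CPM with addback on average. Chrnb2 lay at 77.3 CPM, beside 21.2 and 61.2 CPM, Htr3a at 6.48 CPM, beside 0.692 and 7.49 CPM, and Drd2 at 5.61 CPM, beside 0.390 and 3.68 CPM. Grm4 at 3.12 CPM and Htr6 at 2.12 CPM were near the addback means of 3.50 and 1.65 CPM too. Grik3 at 99.5 CPM and Grik5 at 91.9 CPM were nearer the EV means of 116 and 95.9 CPM. By direction, 10 of the 12 members that fell lay closer to the addback mean, against 60.65% of all genes that fell. Of the 22 members that rose 15 did (68.18%), near the 65.99% of all genes that rose. By its label this line is Max mutant, and it held the Y-linked Ddx3y at 125 CPM, as the EV libraries did at 157 to 177 CPM and the addback libraries did not.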
